A study of Mus musculus with 8 samples.

Results

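Ion channel subunits and neurotransmitter receptors were followed across 8 mouse cell samples, from fibroblasts and neural stem cells to pluripotent lines made from them. The members were every array probe whose gene symbol begins with Kcn (potassium channels), Scn and a number (sodium channels), Cacn (calcium channels), Gria, Grik, Grin and a number or Grm and a number (glutamate receptors), Gabr (GABA-A receptors) or Chrn (nicotinic acetylcholine receptors), and that was detected on at least 1 of the 8 arrays. A probe counted as detected where its detection p-value, taken from the control beads of that array that match no transcript, was below 0.01. Of 236 probes for 158 genes of these families, 69 probes for 52 genes met this rule, and the array holds 25697 probes in all. The members were thus chosen by their detection p-values on these arrays, so their presence is a description and no result. At the edge of the rule, a Kcnk5 probe and the Kcnip2 probe came in with a lowest detection p-value of 0.00501, and probes of Kcnip1 and Kcnk10 stayed out at 0.0113.

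The samples were mouse embryonic fibroblasts (MEFs) and neural stem cells (NSCs), both described as carrying a Tet-On background, induced neural stem cells (iNSCs), made from MEFs with Brn4, Sox2, Klf4 and Myc, and 5 pluripotent lines. These were embryonic stem cells (ESCs) with a Tet-On background, NSC 2F iPSCs made from NSCs with Oct4 and Klf4, MEF 4F iPSCs made from MEFs with Oct4, Sox2, Klf4 and Myc, and iNdiPSC-1 and iNdiPSC-4, both derived from the iNSCs with Oct4 and Klf4. The iNSCs and both iNdiPSC clones are labelled C3H and the other 5 samples B6D2F1/J, and the ages of the source animals are not given in the sources used here. Each sample is 1 array of 1 line or culture, the clones share their donor cells, and the iPSCs were grown on feeder cells, so that fibroblast RNA can be present in them. The labels mark the iNSCs as pluripotent, but of 5 pluripotent markers Pou5f1, Nanog and Esrrb were not detected in them. Zfp42 (log2 level 5.45) and Dppa5a (5.22) were detected, against 8.81 to 10.17 and 14.22 to 14.37 in the pluripotent lines, and the iNSCs are treated here as somatic. The arrayed MEFs differ in strain from the iNSCs as labelled and so are not their source cells.

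Voltage-gated potassium and calcium channels open when the membrane is depolarised, and two-pore-domain and inward rectifier potassium channels set the resting potential. Pore-forming subunits work with auxiliary subunits that change their gating and their transport to the cell surface. AMPA, kainate and NMDA receptors are glutamate-gated cation channels, nicotinic receptors are acetylcholine-gated cation channels, and GABA-A receptors are chloride channels. These families are known best from neurons and muscle, and neural stem cells and astroglia use some of them to sense transmitters released nearby.

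The arrays were close in quality, with 43.1% to 47.2% of probes detected and a median raw intensity of 112 to 128. Levels are log2 of the background-corrected and quantile-normalised intensity. The lowest level of a detected probe, called the floor here, lay between 4.97 and 5.27, and a level not detected is only an upper bound. Levels of different probes are not comparable, since probes differ in how well they bind. Of 10 neural stem cell and astroglia markers, 6 were detected in NSCs, 7 in iNSCs and 3 or 4 on each other array. Fabp7 and Aqp4 were detected in NSCs and iNSCs alone, and Gfap and S100b in iNSCs alone. Nes and Slc1a3 were detected on all 8 arrays and were called higher in the neural samples than in the control lines, whereas Sox2, at 8.74 to 9.82 in the pluripotent lines, 9.84 in NSCs and 9.92 in iNSCs, was not called. Aldh1l1 was not detected in iNSCs, and Pax6 and Msi1 on no array. Nanog was detected in the 5 pluripotent lines and on no other array. Of 12 neuron markers, Tubb3, Dcx, Snap25, Syt1 and Nefl were not detected on any array.

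Of the channel and receptor probes, 29.2% were detected somewhere, against 59.1% of all probes. The NSCs had 38 member probes detected and the iNSCs 37, the MEFs 29, iNdiPSC-1 24 and iNdiPSC-4 26, and the MEF 4F iPSCs 21, the NSC 2F iPSCs 19 and the ESCs 17. The pluripotent lines were thus all below the 3 somatic samples, although at the looser detection p-value of 0.05 the order changed, with 36 in the MEFs and 43 in the ESCs. By family the largest numbers came from potassium channel subunits, with 27 of 80 genes on the array, and from calcium channel subunits, with 11 of 20. Glutamate receptors gave 7 of 18 genes, nicotinic receptor subunits 5 of 16 and GABA-A receptor subunits 2 of 16.

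Some of the classical neuronal subunits were not detected on any of the 8 arrays. None of the 8 sodium channel genes on the array was detected, among them Scn1a and Scn8a, pore subunits of axonal sodium channels. The AMPA receptor subunit Gria1, the kainate receptor subunits Grik2 and Grik4 and the NMDA receptor subunits Grin2a, Grin2b, Grin2d and Grin3b were not detected. Neither were the measured alpha and beta subunits of the GABA-A receptor (Gabra2 to Gabra6, Gabrb1 and Gabrb2). In the nicotinic family Chrna1, Chrna2, Chrna3, Chrna5, Chrna6, Chrna7 and Chrna10 were not detected, nor was Chrnb2, the usual partner of Chrna4 in brain receptors. A probe that does not bind well would give the same reading: 15 of the 52 member genes have a further probe that was detected on no array.

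**Figure D1:**
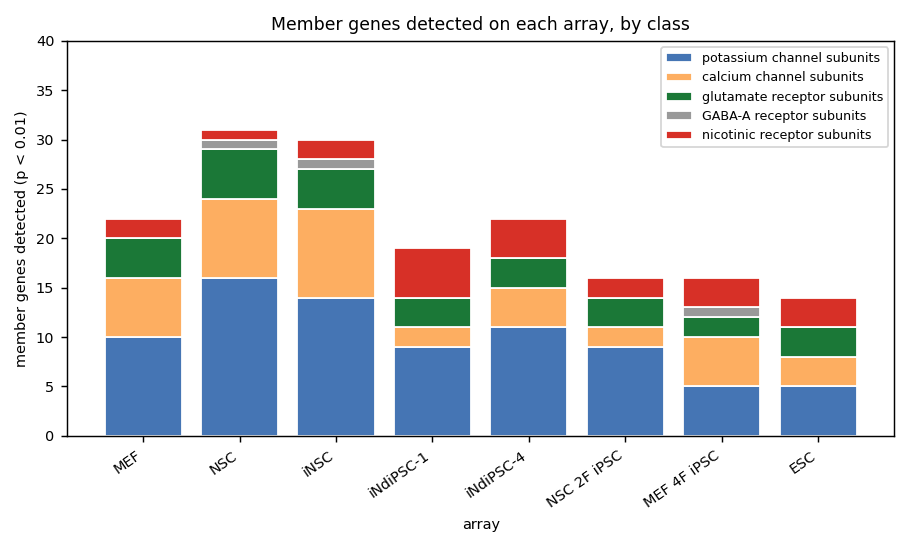
Member genes detected at a detection p-value below 0.01 on each array (y axis, number of genes), stacked by class. NSCs and iNSCs carried 16 and 14 potassium channel genes against 5 in MEF 4F iPSCs and ESCs, whereas nicotinic receptor genes numbered 5 in iNdiPSC-1 and 1 in NSCs.

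In the arrangement of members over arrays, 22 probes were detected in NSCs, iNSCs or both and on no other array. Another 11 were detected in at least 1 pluripotent line and on no somatic array, and 2 of these, for Kcnk5 and Chrna9, on all 5 pluripotent arrays. In 3 cases a probe was detected on all 8 arrays, and 16 probes were detected on 1 array only. The heat map of levels shows these blocks.

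**Figure D2:**
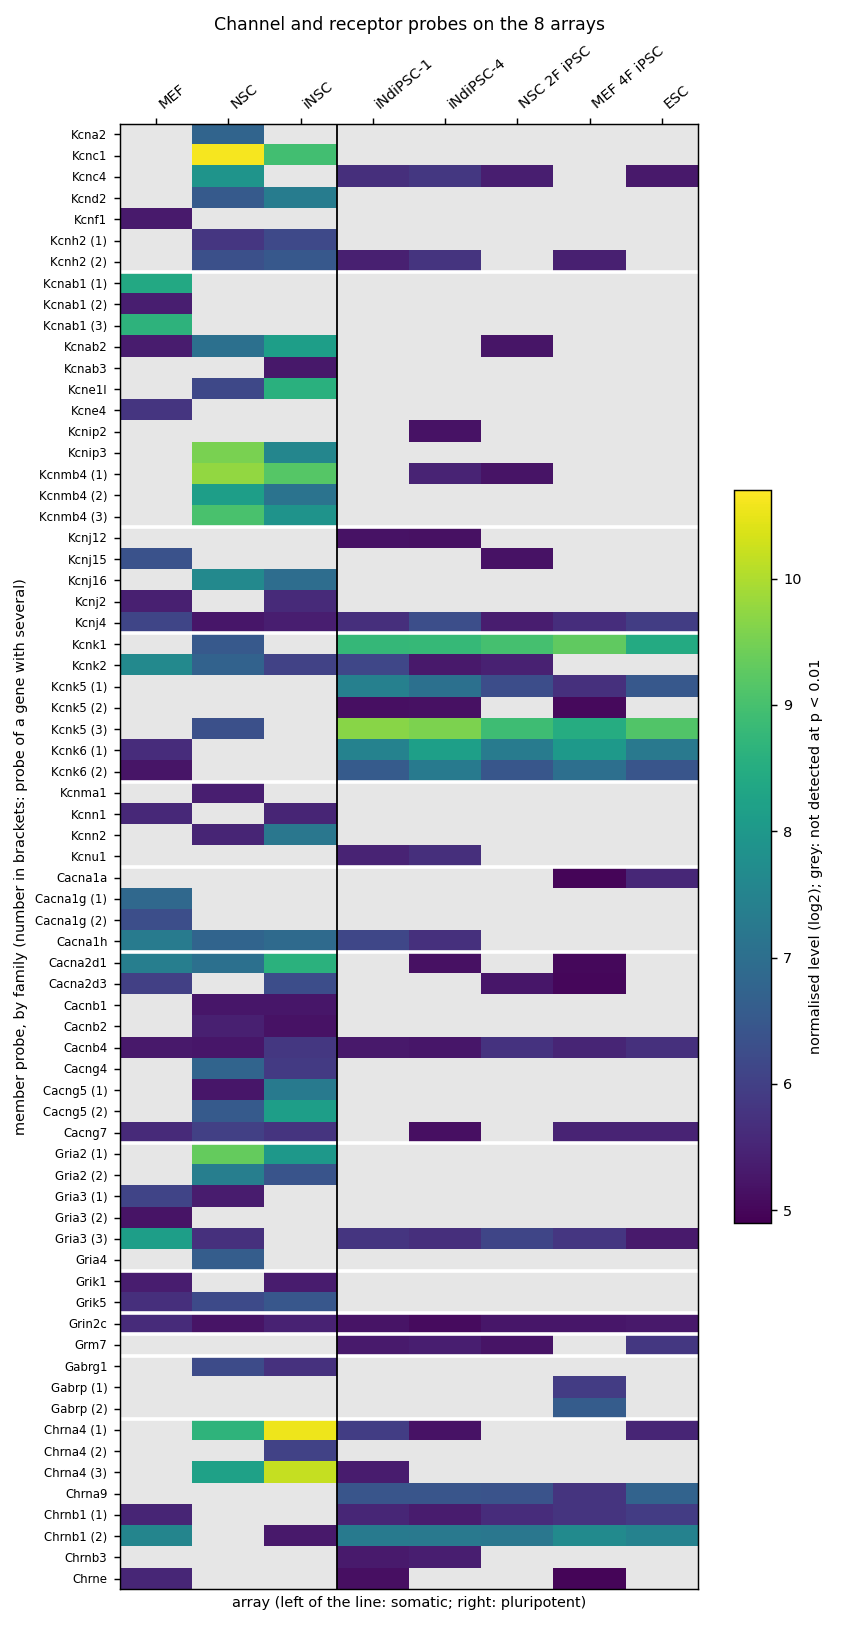
Level of each of the 69 member probes (rows, by family, thin white lines between families) on the 8 arrays (columns), as log2 of the normalised intensity, with grey where a probe was not detected. The bright cells of Kcnc1, Kcnip3, Kcnmb4, Gria2 and Chrna4 lie in the NSC and iNSC columns, and those of Kcnk1 and one Kcnk5 probe in the 5 pluripotent columns.

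The NSCs and iNSCs were first compared with the 3 control pluripotent lines (ESCs, NSC 2F iPSCs and MEF 4F iPSCs), to see which channels and receptors set neural stem cells apart from pluripotent cells. The genes called higher in the neural samples were 10 potassium channel genes, 4 calcium channel genes (with the Cacng subunits) and 1 each of the AMPA (Gria2), kainate (Grik5), GABA-A (Gabrg1) and nicotinic (Chrna4) receptor subunits. Those called lower were 3 two-pore-domain potassium channels and the nicotinic subunits Chrnb1 and Chrna9. Of 43 member probes tested with limma, 32 were called (adjusted p below 0.05 and at least 2-fold), 24 higher in the neural samples for 18 genes and 8 lower for 5 genes. Over all 12803 probes tested, 35.1% were called, 17.6% higher and 17.5% lower. The median difference was 1.49 over the members and -0.03 over all probes tested. However, 27 of the 43 were detected on 1 side only, and 23 of the called probes were among these. Probes that are included because 1 side detects them tend to differ, so these counts are a description. Of the 16 detected on both sides, 9 were called, 6 higher and 3 lower. The share over all probes detected on both sides was not counted, so this too is a description. Without background correction 15 of the 32 calls were lost, and not all of these losses are named below. In bulk RNA, fewer cells with a transcript and less of it per cell cannot be told apart.

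Among the pores, Kcnc1 gave the largest difference. Kcnc1 encodes the Kv3.1 channel, known for fast repolarisation in rapidly firing neurons. Its level was 10.61 in NSCs and 8.94 in iNSCs, and it was not detected on the other 6 arrays (4.25 to 4.45). The difference of 5.39 ± 0.48 (SE, 2 arrays against 3, adjusted p = 0.000498) corresponded to at least 25.0-fold. Kcnd2, the Kv4.2 pore of A-type currents, was at 6.55 in NSCs and 7.34 in iNSCs and was not detected elsewhere (difference 2.54 ± 0.30, adjusted p = 0.00139). Both neural arrays were thus above every other array for Kcnc1 and Kcnd2. The Kcnd2 call was lost without background correction (0.98). Kcnh2, the ERG channel pore, had 2 probes, one of them detected in NSCs (5.81) and iNSCs (6.19) alone and the other also in both clones and the MEF 4F iPSCs at 5.40 to 5.77. Both Kcnh2 probes were called, with differences of 1.25 and 1.21, and the call on the first was lost without the iNSC (1.07), NSC 2F iPSC (1.13) or MEF 4F iPSC array (1.17).

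Potassium channel auxiliary subunits were among the strongest members. Kcnmb4, the beta4 subunit of the large-conductance calcium-activated channel, was measured by 3 probes that went the same way. The brightest read 9.77 in NSCs and 9.16 in iNSCs, 5.48 in iNdiPSC-4 and 5.20 in NSC 2F iPSCs, and was not detected in the other 4 samples. Its difference was 4.42 ± 0.28 (adjusted p = 0.00018), at least 20.0-fold, and the other 2 probes differed by 3.2 and 4.03. Kcnma1, the pore that this subunit joins, was detected in NSCs alone, at 5.39 near the floor. Kcnip3, a calcium-binding partner of Kv4 channels also known as the repressor DREAM, stood at 9.53 in NSCs and 7.56 in iNSCs and was not detected elsewhere (difference 4.08 ± 0.54, adjusted p = 0.00215). Kcne1l, a small single-pass subunit, was at 6.15 in NSCs and 8.58 in iNSCs alone (3.0 ± 0.65, adjusted p = 0.0128). The Kcne1l call was lost without background correction (1.36). Kcnab2, a cytoplasmic beta subunit of Kv1 channels, was also detected in MEFs (5.35) and NSC 2F iPSCs (5.22), below NSCs (7.03) and iNSCs (8.16), with a difference of 2.55 ± 0.38 (adjusted p = 0.00347).

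Further potassium channels marked both neural samples. Kcnj16, the Kir5.1 inward rectifier that forms channels with Kir4.1 in glia, was at 7.64 in NSCs and 6.97 in iNSCs and was detected nowhere else (2.75 ± 0.28, adjusted p = 0.000859). Kcnn2, a small-conductance calcium-activated channel, was at 5.49 and 7.21 (1.72 ± 0.50, adjusted p = 0.0327), and this call was lost on leaving out the iNSC (0.86), NSC 2F iPSC (1.84), MEF 4F iPSC (1.64) or ESC array (1.68). Kcnk2, the mechanosensitive TREK-1 channel, was higher in the neural samples as well (6.73 and 6.05, difference 1.49 ± 0.36, adjusted p = 0.0183), but its highest level was in MEFs (7.64) and it was detected in both clones (6.13 and 5.29) and NSC 2F iPSCs (5.43). The Kcnk2 call was lost without the NSC (1.15), MEF 4F iPSC (1.39) or ESC array (1.32).

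For calcium channels the pore of interest was Cacna1h, the T-type Cav3.2 channel. Its level was 7.31 in MEFs, 6.76 in NSCs, 6.90 in iNSCs, 6.13 in iNdiPSC-1 and 5.70 in iNdiPSC-4, and it was not detected in the 3 control pluripotent lines. The neural samples exceeded the control lines by 2.05 ± 0.23 (adjusted p = 0.0011). The order of levels thus ran from the somatic samples through the clones to the controls, without overlap. Cacna2d1, the alpha2delta-1 subunit that brings calcium channels to the membrane, was at 7.39 in MEFs, 7.05 in NSCs and 8.6 in iNSCs, near the floor in iNdiPSC-4 (5.15) and MEF 4F iPSCs (5.02), and not detected in the other 3 lines (3.14 ± 0.48, adjusted p = 0.00375). Cacng4 and Cacng5 belong to the transmembrane AMPA receptor regulatory proteins, which carry AMPA receptors to the membrane and alter their gating. Cacng4 was at 6.77 in NSCs and 5.88 in iNSCs (1.94 ± 0.31, adjusted p = 0.00432), and the brighter Cacng5 probe was at 6.54 and 8.14 (2.96 ± 0.46, adjusted p = 0.00381). Neither was detected on any other array. The dimmer Cacng5 probe (5.24 and 7.30, difference 1.90) lost its call without any 1 of the iNSC (0.88), NSC 2F iPSC (1.96), MEF 4F iPSC (1.86) and ESC arrays (1.90). Cacng7, of the same group, was detected on 6 arrays at 5.14 to 6.01 and was not called (0.52 ± 0.24, adjusted p = 0.126).

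The AMPA receptor subunits divided by sample. Gria2 encodes GluA2, the subunit that makes AMPA receptors poorly permeable to calcium. One of its probes read 9.34 in NSCs and 7.99 in iNSCs and was not detected on the other 6 arrays (4.48 to 4.77), a difference of 3.99 ± 0.41 (adjusted p = 0.000851) or at least 11.6-fold, and the other read 7.38 and 6.41 (2.61 ± 0.33, adjusted p = 0.00174). Gria4 was detected in NSCs alone, at 6.61. Gria3 was instead highest in MEFs (8.14 by its brightest probe), and the neural samples differed from the control lines by -0.51 ± 0.38 (adjusted p = 0.314), which was not called. Of the kainate receptors Grik5, a high-affinity subunit, was detected in MEFs (5.69), NSCs (6.2) and iNSCs (6.48) and in no pluripotent line (1.85 ± 0.24, adjusted p = 0.00198). Gabrg1, a gamma subunit of the GABA-A receptor, was detected in NSCs (6.23) and iNSCs (5.72) alone (1.66 ± 0.25, adjusted p = 0.00352), without any alpha or beta subunit that was measured.

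Chrna4, the alpha4 nicotinic subunit, was the other large difference. Its first probe was at 8.67 in NSCs, 10.56 in iNSCs, 5.95 in iNdiPSC-1, 5.19 in iNdiPSC-4 and 5.50 in ESCs, and was not detected in MEFs, NSC 2F iPSCs and MEF 4F iPSCs. The difference was 4.61 ± 0.57 (adjusted p = 0.00166), at least 21.2-fold, and a second probe gave 4.85 ± 0.54 (adjusted p = 0.00113). The third Chrna4 probe was detected in iNSCs alone (6.04). Both arrays of neural stem cells were above all pluripotent lines in the first 2 probes, and the iNSC level was the highest of the 8 in all 3.

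**Figure D3:**
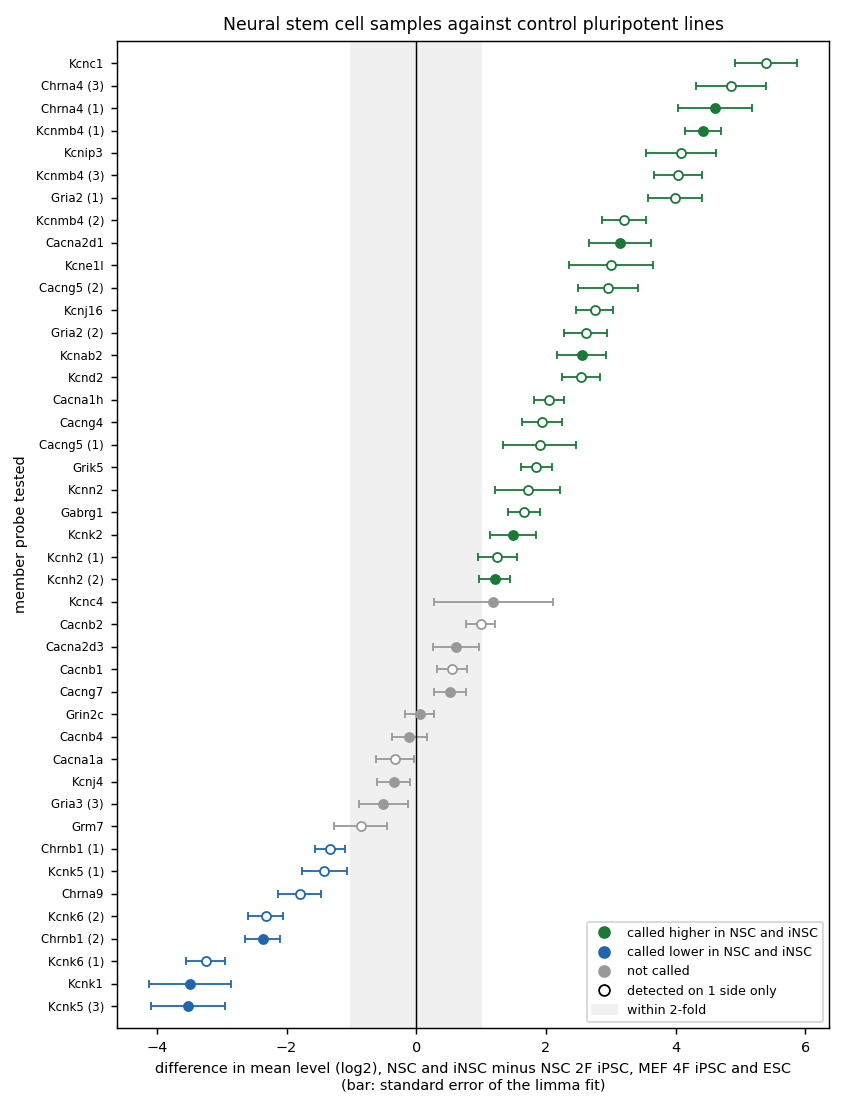
Difference in mean level (log2) between NSCs and iNSCs (2 arrays) and the 3 control pluripotent lines for the 43 member probes tested, with the standard error of the limma fit as bars and open circles where a probe was detected on 1 side only. Differences run from -3.52 for a Kcnk5 probe to 5.39 for Kcnc1, and 8 called probes lie below 0.

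The regions upstream of 6 of these genes are shown because the genes form the clearest blocks of the data, with Kcnc1, Kcnmb4, Gria2 and Chrna4 high in the neural samples and Kcnk1 and Kcnk5 high in the pluripotent lines. They are the 250 bases before the annotated start of the gene, 5′ to 3′ on the gene's strand, from RefSeq on GRCm38.p6, and the start used in these cells is not known. Capitals mark GGGCGG, the GC box bound by Sp factors, and GGACAGC, a stretch within the site of the neuronal gene repressor REST, each on either strand (as CCGCCC and GCTGTCC on the other).
Kcnc1 (chr7:46396218-46396467, plus strand): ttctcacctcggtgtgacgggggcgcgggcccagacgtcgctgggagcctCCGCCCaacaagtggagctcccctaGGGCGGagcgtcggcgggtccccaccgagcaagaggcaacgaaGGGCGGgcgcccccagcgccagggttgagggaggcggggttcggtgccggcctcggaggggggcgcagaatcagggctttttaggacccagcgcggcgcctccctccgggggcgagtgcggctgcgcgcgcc
Kcnmb4 (chr10:116473524-116473773, minus strand): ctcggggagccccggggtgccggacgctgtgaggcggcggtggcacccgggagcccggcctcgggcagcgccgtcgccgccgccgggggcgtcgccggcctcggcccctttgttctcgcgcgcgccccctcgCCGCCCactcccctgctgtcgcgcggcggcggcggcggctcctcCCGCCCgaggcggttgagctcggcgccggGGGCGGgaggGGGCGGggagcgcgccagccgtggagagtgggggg
Gria2 (chr3:80802836-80803085, minus strand): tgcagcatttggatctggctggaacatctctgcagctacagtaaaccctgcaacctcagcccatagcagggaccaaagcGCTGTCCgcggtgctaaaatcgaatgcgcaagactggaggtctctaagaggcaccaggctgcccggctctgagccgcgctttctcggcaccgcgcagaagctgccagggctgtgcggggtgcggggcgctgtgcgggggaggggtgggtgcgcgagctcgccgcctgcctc
Chrna4 (chr2:181039178-181039427, minus strand): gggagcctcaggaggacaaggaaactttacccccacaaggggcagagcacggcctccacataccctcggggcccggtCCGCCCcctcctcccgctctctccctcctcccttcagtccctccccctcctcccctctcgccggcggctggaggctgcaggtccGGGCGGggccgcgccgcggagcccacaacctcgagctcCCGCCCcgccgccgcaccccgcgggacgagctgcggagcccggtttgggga
Kcnk1 (chr8:125994852-125995101, plus strand): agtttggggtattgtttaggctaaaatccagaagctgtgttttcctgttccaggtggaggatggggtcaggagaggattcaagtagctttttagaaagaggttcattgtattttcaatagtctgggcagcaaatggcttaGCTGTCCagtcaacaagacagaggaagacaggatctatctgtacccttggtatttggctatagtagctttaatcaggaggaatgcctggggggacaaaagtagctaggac
Kcnk5 (chr14:20181783-20182032, minus strand): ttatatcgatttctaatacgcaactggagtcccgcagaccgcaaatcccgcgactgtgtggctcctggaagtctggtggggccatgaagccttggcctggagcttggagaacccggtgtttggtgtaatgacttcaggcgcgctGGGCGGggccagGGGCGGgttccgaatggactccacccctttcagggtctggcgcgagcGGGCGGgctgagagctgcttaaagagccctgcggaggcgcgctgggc

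Kcnmb4 held 4 GC boxes and 43 CpG dinucleotides, Kcnc1 3 and 30, Chrna4 3 and 24, Kcnk5 3 and 19. Gria2 held no GC box and 19 CpG, and Kcnk1 neither a GC box nor a CpG. The GGACAGC letters were found in Gria2, 171 bases before the start, and in Kcnk1, 110 bases before it. So the match occurred once in a gene that was high in neural samples and once in a gene that was high in pluripotent lines. A promoter was listed for 41 of the 52 member genes, 60 in all. GGACAGC was found in 11.7% of these 60 and in 5.28% of all 32851 promoters of the table, and the member genes with it were Cacnb1, Gria2, Kcne1l, Kcne4, Kcnip3, Kcnj4 and Kcnk1. GGGCGG was found in 30 of the 60 and in 32.7% of all. The 2 motifs overlapped in no member promoter. A match describes letters in this window and is not evidence of binding.

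**Figure D4:**
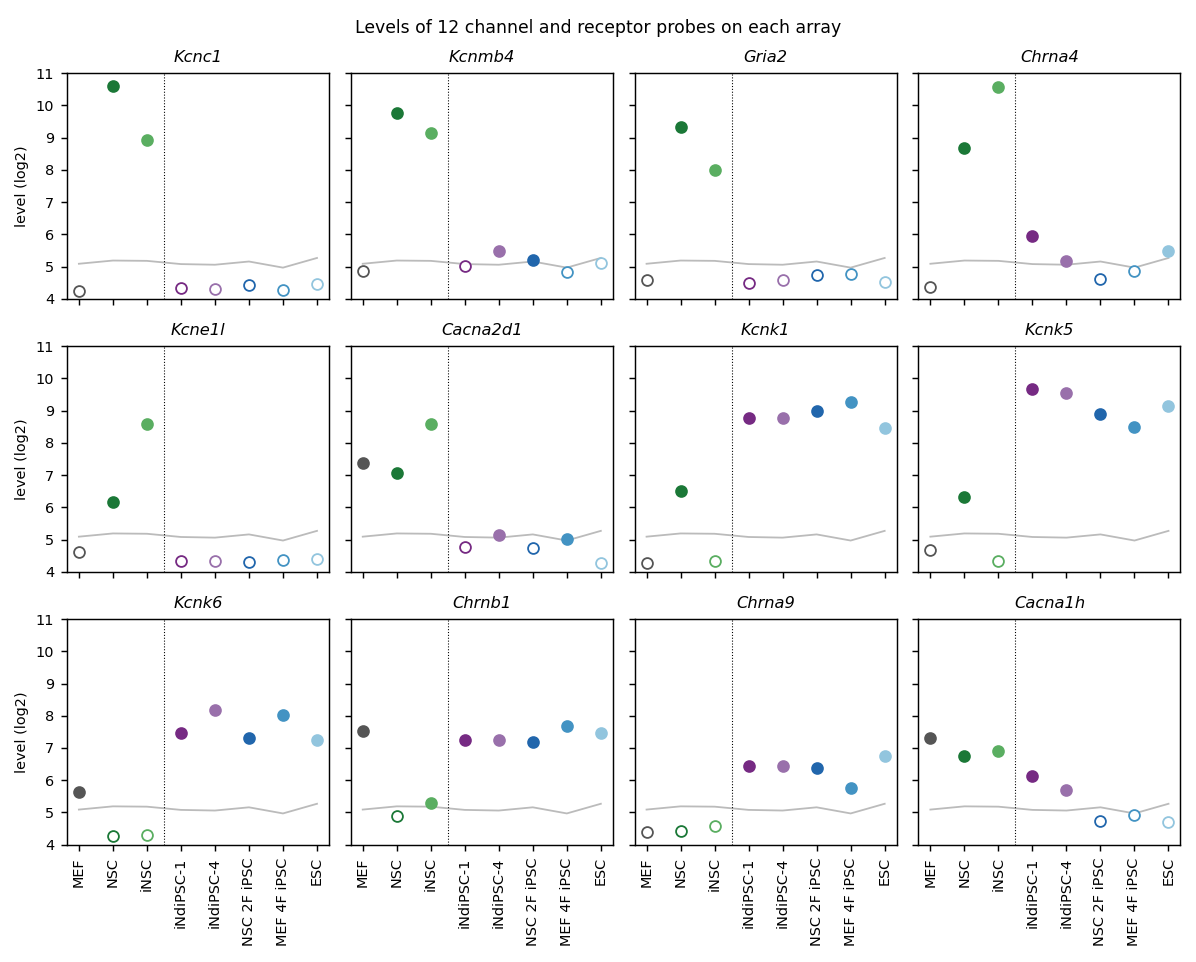
Levels (log2 of the normalised intensity, y axis) of 12 member probes on the 8 arrays, 1 point per array, filled where the probe was detected and open where it was not, with the array's floor as a grey line and the somatic arrays left of the dotted line. For Kcnc1, Kcnmb4, Gria2, Chrna4 and Kcne1l the NSC and iNSC points lie above all others, and for Kcnk1, Kcnk5, Kcnk6 and Chrna9 the 5 pluripotent points do.

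The members that were lower in the neural samples were 3 two-pore-domain potassium channels, which carry background potassium currents, and 2 nicotinic receptor subunits. Kcnk1, the TWIK-1 channel, was at 8.76 and 8.78 in the clones, 9.0 in NSC 2F iPSCs, 9.28 in MEF 4F iPSCs and 8.45 in ESCs, at 6.52 in NSCs, and was not detected in MEFs or iNSCs. The neural samples were lower by 3.49 ± 0.63 (adjusted p = 0.00658). Kcnk5, the alkali-sensitive TASK-2 channel, read 9.66, 9.55, 8.90, 8.49 and 9.13 in the same 5 lines with its brightest probe, 6.32 in NSCs, and was not detected in MEFs or iNSCs (lower by 3.52 ± 0.57, adjusted p = 0.00444). A second Kcnk5 probe was called as well (-1.42), but not without the iNSC (-1.08), NSC 2F iPSC (-1.36) or ESC array (-1.25), and the third stayed near the floor. Kcnk6, the TWIK-2 channel, was at 7.25 to 8.17 in the pluripotent lines and 5.63 in MEFs by one probe, and was not detected in NSCs or iNSCs (lower by 3.25 ± 0.30, adjusted p = 0.000605). All 5 pluripotent arrays were thus above all 3 somatic arrays for these 3 channels.

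The nicotinic subunits fell into 2 patterns. Chrnb1, the beta1 subunit of the muscle receptor, was at 7.20 to 7.68 in the 5 pluripotent lines and 7.53 in MEFs, but at 5.29 in iNSCs and not detected in NSCs (lower in the neural samples by 2.37 ± 0.27, adjusted p = 0.00119). The MEF level lay inside the range of the pluripotent lines. Chrna9, best known from cochlear hair cells, was at 6.43 and 6.44 in the clones, 6.39 in NSC 2F iPSCs, 5.77 in MEF 4F iPSCs and 6.74 in ESCs, and was not detected in any somatic sample (lower by 1.80 ± 0.33, adjusted p = 0.0069). Rapsn, which clusters muscle nicotinic receptors, was listed beside the members and was also detected in the 5 pluripotent lines (5.22 to 6.2) and in no somatic sample. Chrne, the adult muscle epsilon subunit, was near the floor in MEFs (5.53), iNdiPSC-1 (5.14) and MEF 4F iPSCs (4.98).

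Strain differed between iNSCs and the control lines, and its part in these calls was not tested. The 2 steps from neural stem cell to pluripotent line, each within 1 strain, are described here. Leaving out the iNSC array leaves B6D2F1/J samples alone. The neural side is then the NSC array alone, which is assumed to vary as the 3 control lines do, so such a fit does not test the strain. From NSCs to NSC 2F iPSCs, 1 array each and so without a test, all 24 probes called higher in the neural samples were lower in the derived line, 20 of them past 2-fold. From iNSCs to the mean of the clones, which are arrays that the fit did not use on the pluripotent side, all 24 were again lower, 19 past 2-fold, and 17 of the 24 were not detected in either clone. The 8 probes called lower were higher in the derived lines in both steps, 7 past 2-fold in each. The NSC, iNSC and NSC 2F iPSC arrays enter both the fit and these steps, so the steps are not independent of the fit. The probes were chosen by that fit, so their shared direction was largely fixed in advance and does not test strain. Over all members detected on either side, 23 were lower and 7 higher past 2-fold from NSCs to NSC 2F iPSCs, where 34.6% of all probes passed 2-fold (17.5% lower and 17.2% higher). For the clones against iNSCs 20 were lower and 7 higher, where 38.7% of all probes did (19.3% lower and 19.4% higher).

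The largest single steps followed the levels given above. In NSC 2F iPSCs Kcnc1 was at least 44.0-fold lower than in NSCs, Kcnmb4 23.8-fold lower by its brightest probe and Kcnip3 at least 20.7-fold lower. In the clones Chrna4 was 31.7-fold lower than in iNSCs and Kcnc1 at least 14.6-fold lower, and Kcnk5 was at least 21.5-fold higher. Kcnc1 was thus below detection in the derived lines of both steps, whereas of the 3 Chrna4 probes 1 was detected in both clones, 1 in iNdiPSC-1 (5.35) but not in iNdiPSC-4, and 1 in neither clone.

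The iNSCs were compared with the NSCs to see how far the induced cells carry the channels of the cells they model. Of 45 member probes detected in either, 9 were higher and 10 lower in iNSCs past 2-fold, and 16.4% of all probes passed 2-fold (8.05% higher and 8.33% lower). Of the 38 probes detected in NSCs and the 37 in iNSCs, 30 were common to both. These are single arrays of different strain and origin, so the differences have no replicate check, and strain and origin cannot be told apart. Kcne1l was 5.42-fold higher in iNSCs, Cacng5 4.15-fold by one probe and 3.02-fold by the other, Chrna4 3.71-fold and 3.87-fold, and Kcnn2 3.30-fold. On the lower side Kcnc4, the Kv3.4 pore, was at 7.90 in NSCs and not detected in iNSCs, at least 6.61-fold lower. Kcnip3 was 3.90-fold lower, Kcnc1 3.19-fold, and Kcna2, the Kv1.2 pore, at least 3.03-fold, having been detected in NSCs alone (6.78). The Kv3 pores Kcnc1 and Kcnc4 and the AMPA subunits Gria2 (2.55-fold) and Gria4 (at least 2.69-fold) were thus lower in iNSCs. Chrna4, both Cacng5 probes and the calcium channel subunits Cacna2d1 (2.92-fold) and Cacna2d3 (at least 2.11-fold) were higher.

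**Figure D5:**
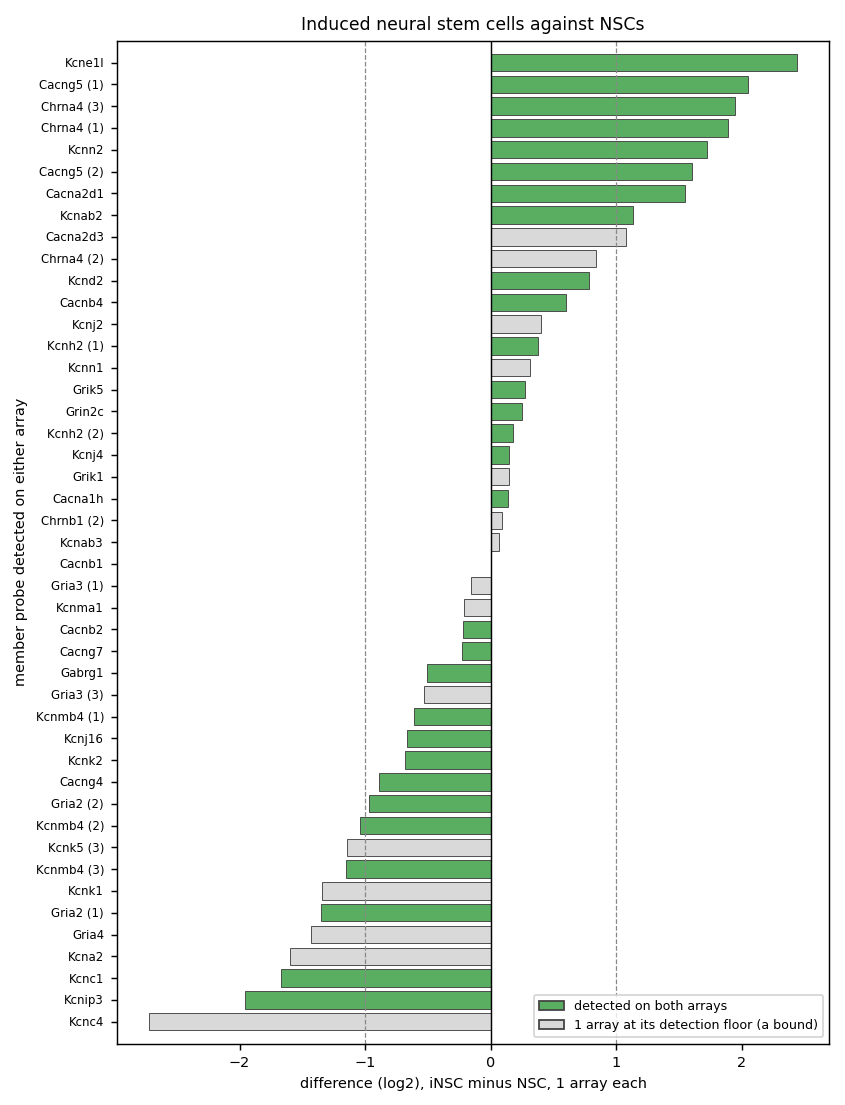
Difference in level (log2, x axis) between iNSCs and NSCs, 1 array each, for the 45 member probes detected on either, with grey bars where 1 of the arrays was at its floor and dashed lines at 2-fold. The bars reach from a bound of -2.72 for Kcnc4 to 2.44 for Kcne1l.

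Fibroblasts are the cell type from which the iNSCs were made, but the arrayed MEFs are B6D2F1/J and the iNSCs C3H, so that strain and conversion cannot be told apart. Against MEFs, 19 member probes were higher and 8 lower in iNSCs past 2-fold of 52 detected on either array, where 32.3% of all probes passed 2-fold (16.6% higher and 15.6% lower). For NSCs 22 were higher and 7 lower of 56, where 33.2% did (17.2% higher, with 2086 of 13026 probes lower). Both comparisons share the MEF array. The largest differences in iNSCs were Chrna4 (at least 44.3-fold and 34.1-fold by 2 probes), Kcnmb4 (at least 16.8-fold) and Kcnc1 (at least 14.4-fold). In NSCs they were Kcnc1 (at least 45.9-fold), Kcnmb4 (at least 25.6-fold) and Kcnip3 (at least 21.6-fold).

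MEFs had channels of their own. Kcnab1, the beta1 subunit of Kv1 channels, was at 8.41, 8.66 and 5.39 by its 3 probes in MEFs and was not detected on any other array. It was at least 11.2-fold lower in iNSCs, at least 11.1-fold lower in NSCs and at least 13-fold lower in MEF 4F iPSCs by the brightest probe. Cacna1g, the T-type Cav3.1 pore, was at 6.86 and 6.30 by 2 probes in MEFs alone, and Kcne4 (5.79) and Kcnf1 (5.32) were also detected in MEFs alone. Against iNSCs, however, Kcne4 was only at least 1.53-fold and Kcnf1 at least 1.1-fold higher in MEFs. Kcnf1 read 5.12 in iNSCs, so the arrays hardly separate it. None of these genes was thus detected in the iNSCs, which are of another strain than the arrayed MEFs, nor in NSCs or MEF 4F iPSCs, which are of the same strain. Gria3 was highest in MEFs at 8.14 by its brightest probe, was at 5.70 in NSCs and 5.31 to 6.11 in the pluripotent lines, and was not detected in iNSCs. Kcnj15, the Kir4.2 inward rectifier, was at 6.36 in MEFs and 5.19 in NSC 2F iPSCs and was detected nowhere else.

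Some members were shared by MEFs and iNSCs but not NSCs, 5 probes in all. Kcnj2, the Kir2.1 inward rectifier, was at 5.42 in MEFs and 5.59 in iNSCs, Kcnn1 at 5.57 and 5.50, and Grik1 at 5.37 and 5.34, with no other array detected. In NSCs these were at 4.80, 4.95 and 5.11, under the floor of 5.19 but near it, so the arrays hardly separate them. The other 2 probes, for Cacna2d3 (5.99 in MEFs and 6.27 in iNSCs, with an NSC reading of 5.18 at the floor) and Chrnb1 (7.53 and 5.29), were detected in pluripotent lines as well.

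From MEFs to MEF 4F iPSCs 10 member probes were lower and 5 higher past 2-fold of 38 detected on either array, and 41.1% of all probes passed 2-fold (20.5% lower and 20.6% higher). Kcnk1 was at least 18.2-fold higher, Kcnk5 at least 10.5-fold and Kcnk6 5.22-fold, and Kcnk2 was at least 6.36-fold lower, Cacna2d1 5.16-fold and Cacna1h at least 5.08-fold. Among the two-pore-domain channels Kcnk2 was thus detected in the MEFs and not in the derived line, and Kcnk1 and Kcnk5 the other way round. Gabrp, the pi subunit of the GABA-A receptor known from epithelia, was detected by 2 probes in MEF 4F iPSCs (5.93 and 6.59) and on no other array.

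When the 3 control pluripotent lines were set against all 3 somatic samples, 10 of 49 member probes tested were called, 6 higher and 4 lower, and 22.7% of all 13220 probes were called (12.7% higher, with 1325 probes lower). The share of members was 20.4%, close to the background, and 28 of the 49 were detected on 1 side only. The higher calls were the 2 probes each of Kcnk5 and Kcnk6, Kcnk1 and Chrna9, and the lower calls Cacna1h, Cacna2d1, Grik5 and Kcnk2. Kcnk1 was higher by 3.87 ± 0.64 (3 arrays against 3, adjusted p = 0.00973), the brightest Kcnk5 probe by 3.73 ± 0.54 (adjusted p = 0.00664) and Cacna1h was lower by 2.21 ± 0.25 (adjusted p = 0.00308). Most of the neural members were not detected in the MEFs. Without the MEF array 32 members were called, 8 higher and 24 lower. That fit has the same arrays as the neural comparison with the sides exchanged, so it repeats that result. Without the NSC 2F iPSC array 5 were called, and Kcnk1 (3.82), Kcnk2 (-2.17), one Kcnk5 probe (1.48), Grik5 (-1.56) and Chrna9 (1.80) lost their calls. Kcnk2 also lost its call without the MEF 4F iPSC (-1.80), ESC (-1.74) or NSC array (-1.94), and that Kcnk5 probe without the ESC (1.37) or iNSC array (1.43). Without background correction 6 of the 10 calls were lost, among them Cacna1h (-0.88), Grik5 (-0.54) and Chrna9 (0.63).

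The iNdiPSC clones were compared with the 3 control pluripotent lines to see whether channels of the donor cells stayed on. None of 28 member probes tested was called with limma, and 1.29% of all 12241 probes were called (0.629% higher and 0.662% lower). An unadjusted limma p below 0.05 was found for 7 of the 28 and for 2267 of the 12241. Clone and control differ in strain and in origin, which cannot be told apart. The nearest was Cacna1h, detected in both clones (6.13 and 5.70) and in none of the control lines (4.70 to 4.91), with a difference of 1.13 ± 0.20 (2 arrays against 3) and an adjusted p of 0.0612. On the log2 values processed by the authors the same probe was called, with an adjusted p of 0.0422, and no member was called under the other alternatives. The clones and the controls did not overlap for Cacna1h, but this held for 12 of the 28 member probes tested and so does not set it apart. The share over all probes was not counted. Kcnk5 was higher by 1.08 ± 0.28 (adjusted p = 0.126) by one probe and 0.76 ± 0.23 (adjusted p = 0.165) by the brightest.

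Members detected in both clones and on no other array were Chrnb3 (5.32 and 5.38), Kcnj12 (5.19 and 5.17) and Kcnu1 (5.47 and 5.69). Kcnu1 encodes the pH-sensitive Slo3 channel of sperm, and Chrnb3 an accessory nicotinic subunit. None was called (adjusted p 0.133, 0.262 and 0.163), and each level lay close to the floor. Of the neural members, Chrna4 was at 5.95 and 5.19 in the clones by its first probe, against 5.50 in ESCs, so that the clones bracketed that control line. The same probe was not detected in NSC 2F or MEF 4F iPSCs, and was not called in the limma fit (0.57 ± 0.34, adjusted p = 0.406). A second Chrna4 probe was detected in iNdiPSC-1 (5.35) but in neither iNdiPSC-4 nor any control line, and was not tested. Over 28 member probes detected in either clone the median absolute difference between the clones was 0.28, against 0.18 over all 12190 probes detected in either. The largest was 0.85, for Kcnk2 (6.13 and 5.29), and none passed 2-fold, where 69 of the 12190 did.

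A few members hardly varied. Kcnj4 (the Kir2.3 inward rectifier), Cacnb4 (a calcium channel beta subunit) and Grin2c (an NMDA receptor subunit) were detected on all 8 arrays. Cacnb4 ranged from 5.24 to 5.84 and Grin2c from 5.08 to 5.61, and Kcnj4 from 5.24 to 6.29. In the comparison of neural samples with control lines their differences were -0.11 ± 0.27, 0.05 ± 0.22 and -0.35 ± 0.26, none of them called. All 3 readings were close to the floor, where a reading includes background and small differences are compressed. Where a gene had several member probes tested in that comparison, which held for 8 genes, the probes had the same sign in 8.

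Other channels and receptor partners were counted in the same way. Of 40 further channel genes listed beside the members (chloride, TRP, purinergic, glycine, acid-sensing, HCN and volume-regulated channels and GABA-B receptors), 31 are on the array and 17 were detected. In the neural comparison 11 were tested, 5 were higher (Clcn4, Glrb, Asic1, Piezo2 and Lrrc8a) and 1, Hcn2, was lower, where 17.6% of all probes were called higher and 17.5% lower. Asic1, an acid-sensing sodium channel, was at 8.13 in NSCs and 8.04 in iNSCs, 5.27 to 6.49 in the pluripotent lines and not detected in MEFs. Hcn2, a pacemaker channel, was at 8.00 and 8.08 in the clones, 6.79 to 7.36 in the control lines, 6.64 in MEFs and 5.99 and 5.71 in NSCs and iNSCs. P2rx3, an ATP-gated channel of sensory neurons, was at 7.92 in iNSCs alone.

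Of 30 scaffold and assembly proteins of receptors, 22 are on the array and 16 were detected, and of 14 tested in the neural comparison 8 were higher and 2 lower, against the same shares over all probes (17.6% and 17.5%). Nlgn3, a postsynaptic adhesion protein, was at 9.58 in NSCs and 8.18 in iNSCs and was not detected elsewhere. Neto1, an auxiliary subunit of kainate receptors, was at 7.24 and 5.56 in the same samples alone, and Nlgn1 at 6.13 and 6.07. Gphn, the scaffold gephyrin of GABA-A and glycine receptors, was detected on all arrays, at 9.03 in NSCs and 8.56 in iNSCs against 6.27 to 7.20 in the others. Pick1 and Rapsn were the 2 lower genes, and Pick1, which binds AMPA receptors, was at 7.03 in MEFs, 7.15 in NSCs, 8.56 in iNSCs and 8.88 to 9.69 in the pluripotent lines. The iNSC level of Pick1 was thus close to the pluripotent range.

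Markers of other cell types moved with some of these groups. Of 6 fibroblast markers the MEFs had 6 detected, NSCs 1, iNSCs 0, the clones 4 and 3, NSC 2F iPSCs and MEF 4F iPSCs 4 each and ESCs 2. Their summed linear level was 24900 in MEFs, 128 to 221 in the neural samples and 255 to 1170 in the pluripotent lines, with Col1a2 and Pdgfrb detected in MEFs alone. The members detected in MEFs alone (Kcnab1, Cacna1g, Kcne4 and Kcnf1) are by that choice not detected in the lines grown on feeders, so this is no result. Kcnk2 and Kcnj15 were detected in NSC 2F iPSCs, which had the highest fibroblast level of those lines (1170). Kcnk2 read higher in iNdiPSC-1 (6.13), where that summed level was 483. Cacna1h, highest in MEFs, was detected in the clones and not in NSC 2F or MEF 4F iPSCs. The brightest Gria3 probe, also highest in MEFs, followed the order of the summed level over the pluripotent lines. It read 6.11 in NSC 2F iPSCs, 5.81 in MEF 4F iPSCs (921), 5.79 in iNdiPSC-1, 5.68 in iNdiPSC-4 (328) and 5.31 in ESCs (255). The part of feeder RNA in these readings was not tested. Of 6 smooth muscle and muscle markers, 2 to 4 were detected in each pluripotent line, 4 in MEFs, 1 in NSCs and none in iNSCs. Chrnb1 was likewise detected in MEFs and the pluripotent lines, and the part of such cells in its level was not tested. Of 12 neuron markers, 5 were detected in NSCs, 3 in iNSCs, 3 in MEFs, 6 in each clone, 5 in NSC 2F iPSCs and 4 each in MEF 4F iPSCs and ESCs, and another 5, named above, on no array. Their summed level was 4250 in NSCs and 4210 in iNSCs, 2020 in MEFs and 729 to 1370 in the pluripotent lines. Such sums are set mostly by the brightest probes, in the neural samples by Map2 (11.86 in NSCs and 11.9 in iNSCs). Of 6 tested, 3 were called higher in the neural samples, Map2, Syp and Elavl4, and Stmn2 was called lower. Stmn2 was not detected in NSCs or iNSCs and was at 9.24 to 9.7 in the control lines and 9.7 in MEFs. Of 4 oligodendrocyte progenitor markers on the array, Olig1 (14.39 in NSCs and 14.29 in iNSCs) and Olig2 (8.98 and 8.71) were called higher in the neural samples. Olig1 was also at 8.92 to 10.67 in the control lines and was not detected in either clone. Pdgfra was highest in MEFs (9.28, against 5.42 in NSCs and 6.42 in iNSCs) and was not called. Cspg4 was also highest in MEFs (6.37, against 5.56 in NSCs) and was not detected in iNSCs. The summed level of these markers was 22100 and 20600 in the neural samples, 747 in MEFs and 102 to 1710 in the pluripotent lines. In the neural samples it came mostly from Olig1. The part of such cells in the levels of the neural members was not tested.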

How the data were processed

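RNA of 8 samples was measured on Illumina bead arrays, 1 array each, and the members and gene lists were chosen with earlier results of these data known. The authors deposited mean bead intensity values on a linear scale, exported with BeadStudio 3.2 before background correction or normalisation. Beside them the authors deposited a detection p-value for each probe. The authors also deposited a matrix of log2 values, named as made with RMA and lumi, with parameters not given in the sources used here. Its 8 columns have the same quantiles. It was used as an alternative, since where its background step set the zero is unknown.

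Intensities were processed with neqc of limma 3.58.1 (R 4.3.3), with the background taken from the detection p-values, an offset of 16, quantile normalisation and log2. Background subtraction leaves values near the floor imprecise, and quantile normalisation assumes that all arrays share 1 distribution. Of 25697 probes, 93.3% had 1 gene symbol in the platform table. The 3 fits (lmFit and eBayes) used probes detected at p below 0.01 on at least 2 arrays of the fit, with Benjamini-Hochberg adjustment over all probes tested, and a call needed an adjusted p below 0.05 and 2-fold. The sides of a fit are different lines with 1 array each, so p-values measure only the spread between these samples, and the fits share control arrays. In data simulated for the neural comparison, 12803 probes with 200 changed, 86% of changes of 3 on the log2 scale were called, and 30% of changes of 1.5. In the real comparison 35.1% of probes were called, so the adjustment was stricter in the simulation and these shares do not carry over to it. Simulated in the same way for the clones against the control lines, the shares were 98% and 66%.

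Single arrays were compared without a test, with undetected values set to the floor of the array. A fold against an undetected side is a bound, "at least", from the mean of the brighter side and, for each array of the dimmer side, the higher of its floor and the reading. The number of arrays limits precision. Named members were the 10 largest called in each direction of a fit, the 5 largest of each single comparison, members on 1 or all arrays and defining subunits; others were described by role after their values were seen. The labels give no slide or batch, and none was tested. The alternatives tried were raw intensities without background correction, scaling to the 75th percentile, the processed matrix, a detection p of 0.05, no filter, 1 probe per gene, a 4-fold limit and leaving out each array. Promoters came from RefSeq. Python 3.11.15, pandas 2.3.3, numpy 2.4.6 and matplotlib 3.10.9 were used.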

Additional observations from a re-analysis of the deposited data

Results flagged for a closer look

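In 5 member probes the step to pluripotency went in opposite directions in different donors, by more than 0.28 on the log2 scale, the median difference between the 2 clones. Each step is 1 array against 1 (the clones averaged), undetected values are at the floor, and the difference between steps was not tested. The rises of Gria3 and Kcnc4 from iNSCs and of Kcnh2 from MEFs start from an undetected donor, so each is a lower bound. How many of all probes did the same was not counted, so the count is only a description. Gria3 fell by 2.32 from MEFs to MEF 4F iPSCs and was higher by 0.40 from NSCs to NSC 2F iPSCs and by 0.56 from iNSCs to the clones. Kcnc4 was lower by 2.51 (log2 change -2.51) from NSCs to NSC 2F iPSCs and higher by 0.58 from iNSCs to the clones. A probe of Kcnh2 changed by -1.17 from NSCs and by -0.92 from iNSCs, and by 0.31 from MEFs. Kcnj4 changed by 0.60 from iNSCs and by -0.47 from MEFs, and the 2 clones alone differed by 0.61 for it. Cacnb4 changed by 0.51 from NSCs and by -0.57 from iNSCs. Both probes read close to the floor, where small changes cannot be separated from array error. For each probe the pluripotent lines lay closer together than the donors did, except for Kcnj4.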

How the results depend on the processing

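No paired analysis was run. Each donor sample and each derived line has 1 array, and the replicate numbers give no pairing, so these steps were compared without a test. Without background correction, which compresses low readings, the called members were 4 for control pluripotent lines against somatic samples, 17 for neural samples against control lines, and the single-array counts past 2-fold were 14 (iNSCs against MEFs), 15 (NSCs against MEFs), 9 (iNSCs against NSCs), 15 (clones against iNSCs), 13 (NSC 2F iPSCs against NSCs) and 9 (MEF 4F iPSCs against MEFs). At 4-fold the corresponding counts that moved were 6 and 21 for the fits and 15 (NSCs against MEFs), 3 (iNSCs against NSCs), 15 (NSC 2F iPSCs against NSCs) and 9 (MEF 4F iPSCs against MEFs). On the processed matrix 1 member, Cacna1h, was called in the clones against control lines, where the main count was 0. At a detection p of 0.05 the member probes detected were 58 in NSCs, 43 in iNdiPSC-1, 40 in iNdiPSC-4, 37 in NSC 2F iPSCs, 37 in MEF 4F iPSCs and 43 in ESCs. Leaving out 1 array at a time gave 5 (without NSC 2F iPSCs) to 32 (without MEFs) calls for pluripotent against somatic, 28 to 32 for neural against control lines, 0 to 0 for the clones against control lines and 28 to 28 past 2-fold for the clones against iNSCs. The fit of pluripotent against somatic without MEFs has the same arrays as the neural comparison and repeats its count. In the neural comparison, adding the clones to the control lines, an alternative chosen after the data were seen, gave 32. Of 49 single-probe results under 434 alternative values, 50 values in 22 of the results lost the call, 21 of them without background correction, 1 gained it and 0 changed direction. Readings near the floor, such as that of Kcnn2 in NSCs (5.49), are set largely by the background, and with 1 array for each line small differences there cannot be separated from array error.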
